A study of Rattus norvegicus with 9 samples.

Results

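Leukocytes leave the blood by holding on to the vessel wall, and 7 rat genes that encode the molecules of this contact were followed here across 9 microarrays: Icam1, Icam2, Vcam1, Madcam1, Sele, Selp and Selplg. They were chosen by gene symbol, and 9 of the 30367 non-control probes of the array carry 1 of these symbols, out of 19293 gene symbols in all. Each gene is represented by its brightest probe. Sele and Selp have 2 probes each, and the other 5 genes have 1.

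The rats were Sprague Dawley males, and total RNA came from the infarcted hemisphere on day 14. The Sham group (n = 3) had the external carotid artery exposed without a filament, and received the solvent. The I/R group (n = 3) had 2 h of middle cerebral artery occlusion by a nylon filament, followed by reperfusion. The DHI group (n = 3) had the same ischemia/reperfusion and daily tail vein doses of Danhong injection, a preparation of Salvia miltiorrhiza and Carthamus tinctorius, for 14 days. The ages of the rats were not given in the sources used here. The tissue is bulk brain, in which more cells of a type and more RNA per cell cannot be told apart.

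Adhesion proceeds in steps. Selectins (Sele and Selp, on activated endothelium, Selp also on platelets) catch passing leukocytes through sugar-bearing ligands such as PSGL-1, the product of Selplg, and the cells roll. Leukocyte integrins then bind members of the immunoglobulin superfamily on the endothelium (ICAM-1, ICAM-2, VCAM-1 and, mainly in gut vessels, MAdCAM-1), and the cells stop and cross. Tumor necrosis factor and interleukin-1 induce several of these molecules through the transcription factor NF-kB. ICAM-1 and VCAM-1 are also made by glia and by leukocytes themselves.

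The promoters that such signals act on are shown for the members whose upstream sequence was at hand, because Icam1 and Vcam1 rose after ischemia/reperfusion, as described below. Of the 7 members, 4 (Icam1, Madcam1, Sele and Vcam1) were in the RefSeq promoter table for assembly GRCr8, which gives 300 bases around each start site. The letters GGNNNTTCC, which most NF-kB sites hold, were searched on both strands, so that a palindromic match counts once, and they occurred in 18.3% of 33469 promoter windows, and at least 2 times in 2.13%. Icam1, Vcam1 and Madcam1 had 2 matches each, and Sele had 0. Matches are in capitals, and each sequence runs from the 5′ end on the gene's strand and stops before the annotated start of the gene.
Icam1, chr8:27829595-27829687, plus strand: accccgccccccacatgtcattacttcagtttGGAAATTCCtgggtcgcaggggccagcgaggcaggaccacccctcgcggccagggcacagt
Vcam1, chr2:206742784-206743033, minus strand: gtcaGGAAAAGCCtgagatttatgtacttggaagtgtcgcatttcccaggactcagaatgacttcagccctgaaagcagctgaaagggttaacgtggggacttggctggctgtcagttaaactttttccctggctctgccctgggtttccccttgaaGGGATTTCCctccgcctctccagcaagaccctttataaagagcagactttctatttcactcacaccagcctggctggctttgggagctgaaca
Madcam1, chr7:10690323-10690572, minus strand: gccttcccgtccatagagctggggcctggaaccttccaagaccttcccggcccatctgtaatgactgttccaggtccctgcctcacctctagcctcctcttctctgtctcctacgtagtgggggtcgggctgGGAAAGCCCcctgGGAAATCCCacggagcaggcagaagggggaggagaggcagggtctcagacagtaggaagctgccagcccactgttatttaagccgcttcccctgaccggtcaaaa
The matches of Vcam1 lie 246 and 93 bases before the start, and those of Madcam1 lie 118 and 105 bases before it. Of the matches of Icam1, GGAAATTCC lies 218 bases before the start site used by the table and is shown. The other, GGAAATACC at 149 bases, lies inside the annotated gene span and is not shown. The window of Sele also lies inside its gene span. A match is a run of letters only, and binding was not measured here.

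Levels are log2 signals minus the 75th percentile of the same array, so that 0 is the 75th percentile and values of different probes are not comparable with each other. The 75th percentile was 1816.3 to 3464.4 intensity units, and each array had 75.2% to 78.9% of its probes well above background. All 5 neuron and all 5 oligodendrocyte marker genes were well above background on every array. The 3 Sham and 3 I/R arrays lay on 1 slide and the 3 DHI arrays on another, so slide and treatment with DHI cannot be told apart. One array stood apart from its group. DHI 1 correlated with the I/R arrays at Pearson's r = 0.979 to 0.987 over the tested probes and with DHI 2 and DHI 3 at 0.917 and 0.940, whereas DHI 2 and DHI 3 correlated with the Sham arrays at 0.981 to 0.990. DHI results of the members are therefore given with and without DHI 1, and so are the counts of the main gene lists. A probe was called when its unadjusted p by limma was below 0.05 and its fold change above 1.5, which are the thresholds of the study's methods, and an adjusted p below 0.05 (Benjamini-Hochberg, over 23747 tested probes) is given as the stricter reading. "Rose" and "fell" are used below for the stricter reading only. The study's methods give n = 3 for each group, and p-values measure the spread between these arrays.

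**Figure D1:**
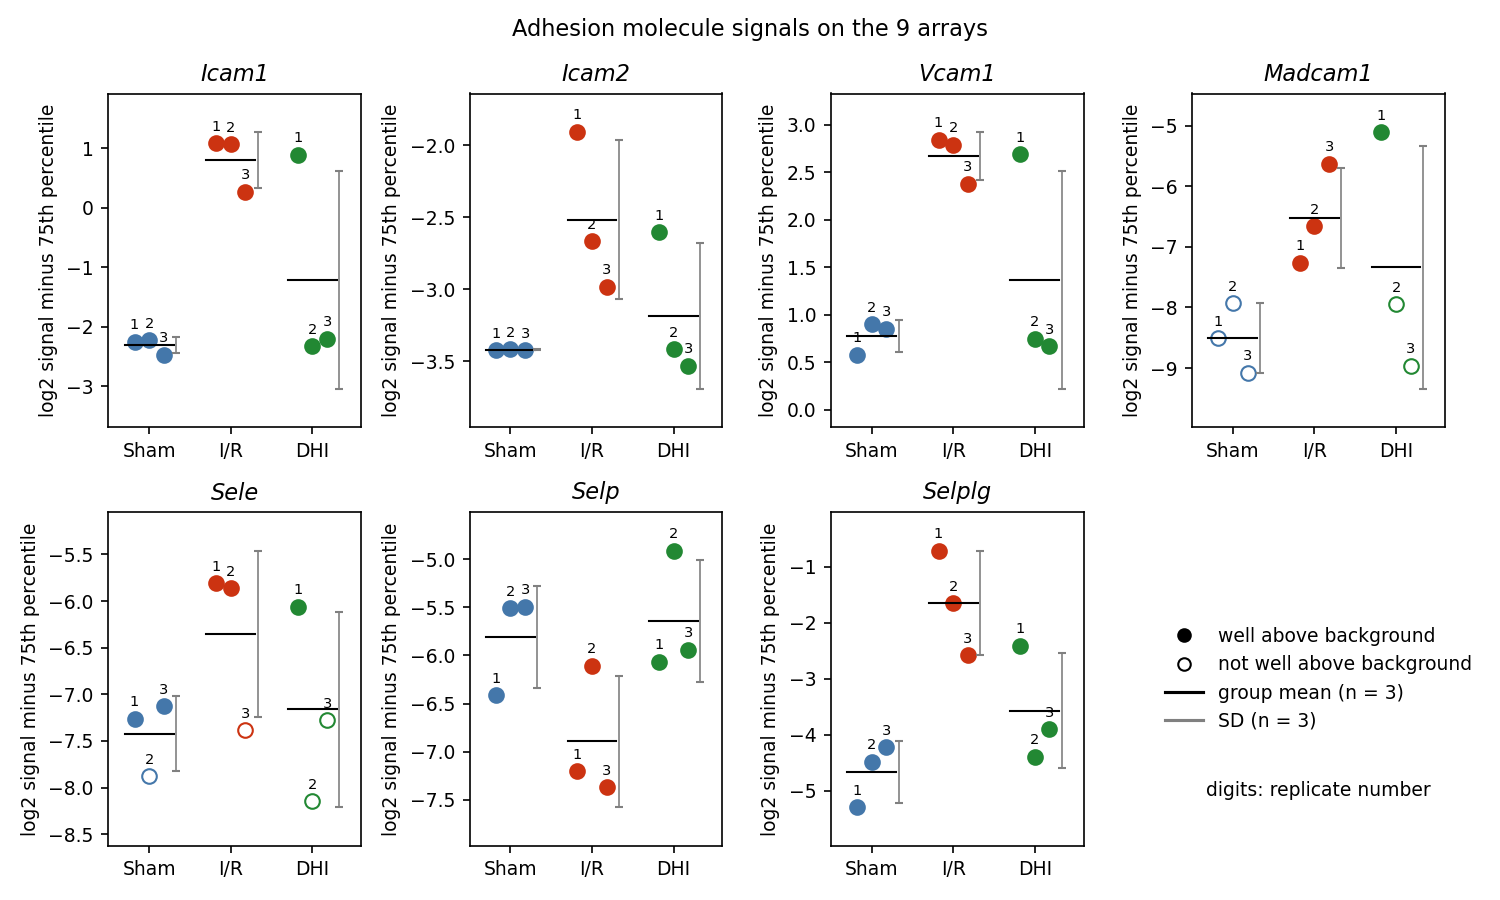
Log2 signal minus the array's 75th percentile (y axis) of the 7 adhesion molecules on each of 3 Sham, 3 I/R and 3 DHI arrays (x axis). Filled points are well above background, open points are not, and the bars show the mean and SD (n = 3). Icam1, Icam2, Vcam1, Madcam1 and Selplg were higher on all 3 I/R arrays than on all 3 Sham arrays, Selp was not, and DHI 1 lay near the I/R arrays for Icam1 and Vcam1.

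Ischemia/reperfusion was accompanied on day 14 by higher signals of Icam1, Icam2, Vcam1 and Selplg. The brighter of the 2 Selp probes read lower, but not at the adjusted threshold, and the other did not. In I/R versus Sham, 4 of the 6 tested members were called higher (Icam1, Icam2, Vcam1, Selplg) and 1 was called lower (Selp), against 20.8% of all tested probes called higher and 22.3% called lower. The median log2 difference of the 6 was 1.94, against -0.10 over all tested probes. Icam1, Vcam1 and Selplg rose at the adjusted threshold, where 31.5% of all tested probes passed. The groups did not overlap for 5 of 6 members, against 62.5% of all probes. Among these 5, Madcam1 was tested only because its I/R arrays were well above background. Its separation from Sham and its part in the median were thus partly fixed by the filter. Without scaling between arrays 0 of the 6 members passed the adjusted threshold, and the same was true with any 1 of the Sham arrays left out, with I/R 1 or I/R 2 left out, or with DHI 3 left out, each of which took the number of all probes passing from 7471 to 0 or 1.

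Icam1 encodes ICAM-1, the counter-receptor of the integrins LFA-1 and Mac-1. Its probe (A_43_P15253, rn4 chr8:20051730-20051789) read -2.25, -2.22 and -2.47 in Sham 1, 2 and 3, and 1.09, 1.07 and 0.27 in I/R 1, 2 and 3. The lowest I/R array was far above the highest Sham array. The means were -2.31 ± 0.13 in Sham and 0.81 ± 0.47 in I/R (SD, n = 3), a log2 difference of 3.12 (SE 0.78, 8.69-fold, adjusted p = 0.0396). The 10 spots of this probe differed by an SD of at most 0.08 on any array. Among the tested probes, 96.7% had a smaller difference.

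Vcam1 encodes VCAM-1, the counter-receptor of the integrin VLA-4. Its probe (A_42_P499158, rn4 chr2:212277695-212277754) read 0.58, 0.90 and 0.85 in Sham and 2.84, 2.79 and 2.38 in I/R. The ranges were again separate, and the I/R values were close to each other. The means were 0.78 ± 0.17 in Sham and 2.67 ± 0.25 in I/R, a log2 difference of 1.89 (SE 0.50, 3.71-fold, adjusted p = 0.0399).

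Icam2 encodes ICAM-2, a ligand of LFA-1 that resting endothelium carries constitutively. Its probe (A_44_P176051, rn4 chr10:95775052-95775111) read -3.42 in each of the 3 Sham arrays, and -1.91, -2.67 and -2.98 in I/R. Every I/R array was higher, but they spread far more widely than the Sham arrays did. The log2 difference was 0.90 (SE 0.33, 1.87-fold), which was called but had an adjusted p of 0.063. The call was lost with any 1 of the Sham arrays or I/R 1 left out, and the difference was 0.60 without I/R 1.

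Madcam1 encodes MAdCAM-1, a mucosal ligand of the integrin made of Itga4 and Itgb7. Its probe (A_44_P125733, rn4 chr7:11553234-11553293) did not stand well above background in Sham, where it read -8.51, -7.93 and -9.08, and was well above background on all 3 I/R arrays, at -7.27, -6.66 and -5.63. With Sham signals raised to at least the lowest signal well above background on each array, I/R was 3.78-fold higher. The fit did not call Madcam1 (adjusted p = 0.117, 95% interval of the log2 difference -0.14 to 4.11). The log2 difference of 1.99 was called by the methods' t-test, with only the 2 groups in the fit, with array weights, and with DHI 3 or DHI 1 left out (adjusted p = 0.0157 without DHI 1), and normexp background correction reduced it to 0.31, not called. Choroid plexus genes stood out on some of the same arrays. Their summed level was 0.524 to 1.17 times the 75th percentile in Sham, 1.64, 3.68 and 94.7 in I/R 1, 2 and 3, and 139, 7.57 and 74.7 in DHI 1, 2 and 3. I/R 3 and DHI 1 had the highest sums of their groups and the highest Madcam1 signals. DHI 3, with a sum of 74.7, read -8.97 for Madcam1, not well above background. I/R 1 and I/R 2 had sums far below that of I/R 3 but above every Sham array, and Madcam1 was well above background on both. The part of the choroid plexus in the Madcam1 signals was not tested.

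Selplg encodes PSGL-1, the main ligand of P-selectin, which leukocytes carry. Its probe (A_64_P015932, rn4 chr12:43843376-43843435) read -5.29, -4.49 and -4.23 in Sham and -0.71, -1.65 and -2.58 in I/R. No I/R array came near the Sham arrays. The means were -4.67 ± 0.56 and -1.65 ± 0.94, a log2 difference of 3.02 (SE 0.62, 8.11-fold, adjusted p = 0.0396).

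Sele encodes E-selectin, which endothelium makes after cytokine stimulation. Its brighter probe (A_44_P291264, rn4 chr13:79822442-79822501, 1 spot) was well above background on 2 of 3 Sham, 2 of 3 I/R and 1 of 3 DHI arrays, and was not tested for that reason. It read -7.26, -7.88 and -7.13 in Sham, -5.81, -5.86 and -7.39 in I/R, and -6.06, -8.15 and -7.28 in DHI. The 3 groups overlapped. The other probe (A_64_P019555) stayed near background on all 9 arrays.

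Selp encodes P-selectin, which is stored in platelets and endothelial cells, and its 2 probes gave different answers. The brighter (A_64_P166514, rn4 chr13:79922082-79922141) is listed under an Ensembl transcript, and the other (A_43_P11721, rn4 chr13:79922078-79922137) under the RefSeq transcript of Selp. The 2 probes are listed only 4 bases apart. They are shown because, shifted by 4 bases, they differ at 8 of 56 aligned bases, which are in capitals.
A_64_P166514: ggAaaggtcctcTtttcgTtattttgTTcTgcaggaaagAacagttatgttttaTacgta
A_43_P11721: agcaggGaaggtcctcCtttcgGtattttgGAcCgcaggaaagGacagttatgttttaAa
The brighter probe read -6.42, -5.51 and -5.50 in Sham and -7.20, -6.11 and -7.37 in I/R. I/R 2 lay above Sham 1, so the groups overlapped. The log2 difference was -1.09 (SE 0.45, 2.12-fold lower in I/R), called but with an adjusted p of 0.0894. Leaving out DHI 3, I/R 1, I/R 3, Sham 2 or Sham 3 removed the call, where the difference was -0.85 to -1.09. It was also not called with no scaling (-0.89), with normexp background correction (-0.50), with array weights (-0.62) or by the methods' t-test. On Sham 3 the 2 spots of this probe read -6.81 and -4.19, and on the other 8 arrays they were close to each other. The second probe gave a log2 difference of 0.59 in the opposite direction and was not tested, since it was well above background on 2 of 3 arrays of each group. One of its spots read 2.42 to 4.16 intensity units and never stood well above background, while the other read 11.2 to 48.8.

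**Figure D2:**
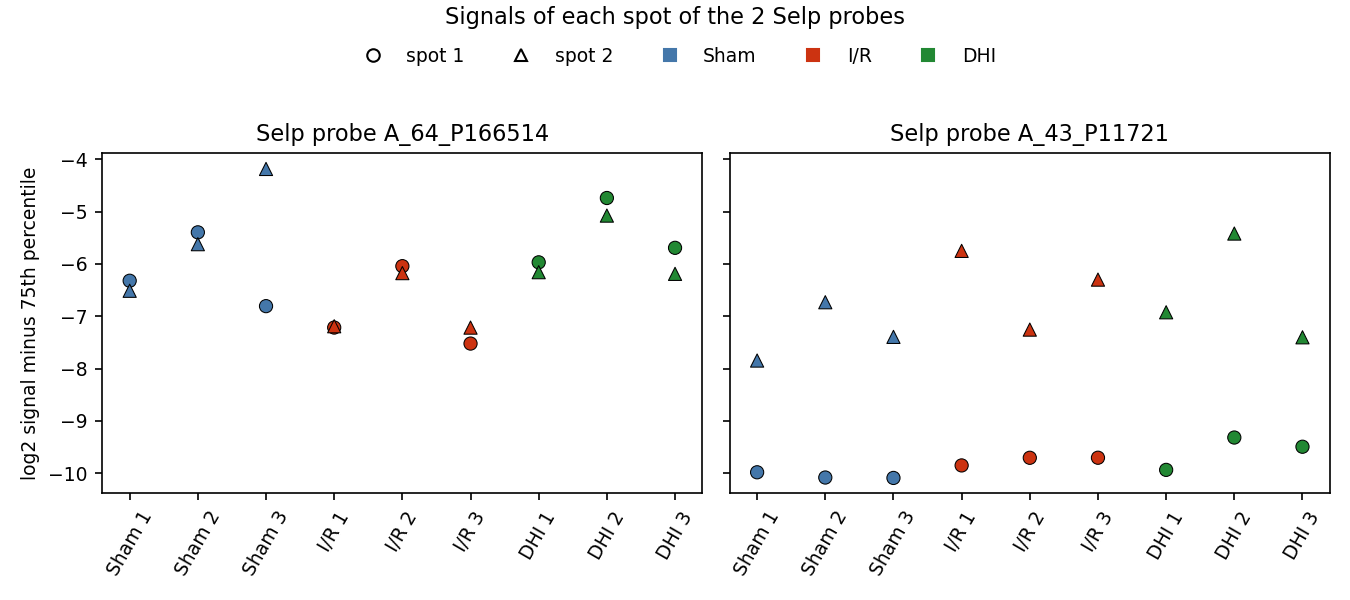
Log2 signal minus the array's 75th percentile (y axis) of each of the 2 spots (circle and triangle) of the 2 Selp probes on the 9 arrays (x axis, coloured by group). The spots of the brighter probe lie close together except on Sham 3, and spot 1 of A_43_P11721 lies far below spot 2 on every array.

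Red cell markers differed in the same directions as the brighter Selp probe, and platelet markers did so in part. The hemoglobin genes Hba-a2 and Hbb and the erythroid heme enzyme Alas2 were all called lower in I/R than in Sham, as were 22.3% of all probes. Their log2 differences were -2.04, -2.17 and -1.72. Their summed level was 3.74 to 29.7 times the 75th percentile in Sham, 2.27 to 3.34 in I/R and 7.33 to 38.9 in DHI. The 3 tested platelet genes did not go one way in I/R, where Gp1bb had a log2 difference of -2.02 (adjusted p = 0.0396), Gp9 of -0.38 (not called) and Pf4 of 3.83 (adjusted p = 0.0396). The summed platelet level was 6.75 to 9.76 in Sham, 3.21 to 5.21 in I/R and 3.70 to 9.79 in DHI. In Sham this sum was mostly Gp1bb, with a mean log2 level of 3.08. Those of Pf4, Gp9 and Ppbp were -3.31, -5.13 and -7.74. All 5 neuron markers were called in the same directions as Gp1bb in both comparisons, and Pf4 in the opposite ones, so the sum does not measure platelets as a whole. DHI 1 had the lowest platelet sum of the DHI arrays, within the I/R range. Its Selp signal was -6.06, close to the -6.11 of I/R 2, the highest I/R array. Against I/R, DHI had all 3 red cell genes called higher, as were Gp9 and Gp1bb, and Pf4 called lower. Their part in the difference of Selp was not tested.

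DHI rats had lower signals than I/R rats for Icam1, Vcam1 and Selplg and a higher one for the brighter Selp probe, with wide errors. Of the 6 tested members, 3 were called lower (Icam1, Vcam1, Selplg) and 1 higher (Selp), against 10.5% of all tested probes called lower and 11.5% called higher. The split between higher and lower calls over all probes depended on the scaling, since 52.2% of the calls were higher with the 75th percentile, 63.7% after another background correction (normexp) and 4.8% with no scaling, where the median of all probes moved from 0.10 to -0.36. The directions of Icam1, Vcam1, Selplg and Selp held under each scaling tried, but the call of Selp was lost with no scaling (0.80). The methods' t-test called 0 of the 6, against 1.97% of all probes. A fit of only the 2 groups left Selplg and Selp called, against 9.05% of all probes. None of the 6 passed the adjusted threshold by limma, where 0.00421% of all tested probes (1 probe) did. The groups did not overlap for 1 of 6 members, Selp, against 9.54% of all probes. The comparison shares its I/R arrays with I/R versus Sham, and the values of each are given side by side.

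Icam1 read 0.89, -2.33 and -2.21 in DHI 1, 2 and 3. DHI 1 lay within the I/R range, and DHI 2 and DHI 3 lay at the Sham level. The DHI mean was -1.21 ± 1.83 (SD, n = 3), a log2 difference from I/R of -2.02 (SE 0.78, adjusted p = 0.196). Without DHI 1 the difference was -3.07 (SE 0.26, adjusted p = 0.00135). The call was lost with I/R 1, I/R 2, DHI 2 or DHI 3 left out, and was -1.46 without DHI 2.

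Vcam1 read 2.69, 0.75 and 0.67 in DHI 1, 2 and 3, the same division. The DHI mean was 1.37 ± 1.15, a log2 difference from I/R of -1.30 (SE 0.50, adjusted p = 0.196), and -1.96 (adjusted p = 0.00163) without DHI 1. Its call was lost with the same 4 arrays left out as for Icam1.

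Selplg read -2.41, -4.40 and -3.90 in DHI. DHI 1 again lay within the I/R range, and the other 2 lay below every I/R array. The log2 difference from I/R was -1.92 (SE 0.62, adjusted p = 0.196), and -2.50 (adjusted p = 0.0128) without DHI 1. The call was lost with I/R 1 or DHI 2 left out, where the difference was -1.45 and -1.51.

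Selp read -6.06, -4.91 and -5.94 in DHI, all above the 3 I/R arrays with its brighter probe, though DHI 1 lay close to I/R 2 (-6.11). The log2 difference from I/R was 1.26 (SE 0.45, 2.39-fold, adjusted p = 0.196), and 1.47 without DHI 1 (adjusted p = 0.0485). It was not called with I/R 1, I/R 3 or DHI 2 left out, where it was 0.89 to 1.10, nor with array weights, where it was 0.43. The second probe gave 0.012.

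Icam2 and Madcam1 were not called. Icam2 read -2.61, -3.42 and -3.53 in DHI, a log2 difference from I/R of -0.67 (95% interval -1.42 to 0.09). Without DHI 1 it was -0.96, and called (adjusted p = 0.0347). Madcam1 read -5.11, -7.95 and -8.97 in DHI and was well above background only on DHI 1, which was brighter than every I/R array. Its difference was -0.82 (95% interval -2.95 to 1.31), and -1.94 (adjusted p = 0.029) without DHI 1. With DHI 1 left out all 6 tested members passed the adjusted threshold, as did 9527 of the 23747 probes. Leaving out DHI 1 is a choice made after its values were seen, and it leaves 2 DHI arrays.

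On a scale where 0 is the Sham mean and 1 the I/R mean of a gene, DHI 1 stood at 1.03 for Icam1, 1.01 for Vcam1, 0.91 for Icam2 and 0.75 for Selplg. DHI 2 and DHI 3 stood between -0.12 and 0.25 for Icam1, Icam2, Vcam1 and Selplg. The 2 sets of positions did not meet for these 4 genes. Madcam1 stood at 1.71, 0.28 and -0.23 in DHI 1, 2 and 3. Selp was not divided in this way, at 0.24, -0.83 and 0.12. The summed level of 11 microglia and macrophage genes divided the same arrays, at 172 times the 75th percentile in DHI 1 and 25.0 and 29.0 in DHI 2 and DHI 3, against 126 to 310 in I/R and 18.6 to 22.4 in Sham. Its part in the differences was not tested.

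**Figure D3:**
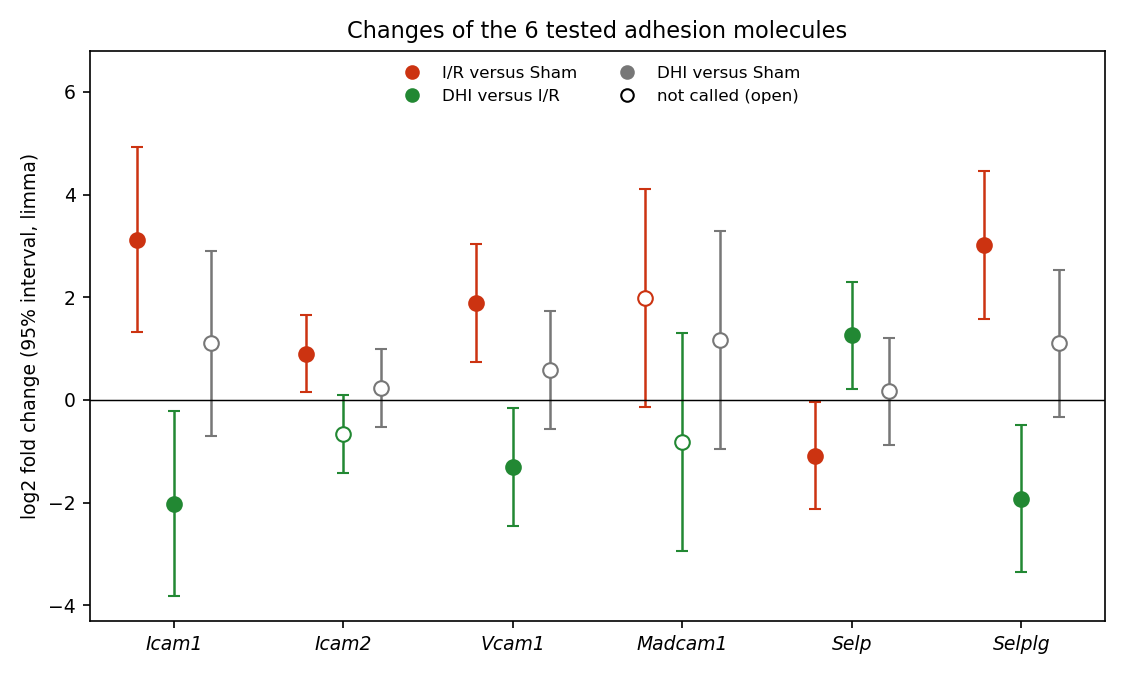
Log2 fold change (y axis, points) with its 95% interval (limma, bars) of the 6 tested adhesion molecules (x axis) in I/R versus Sham (red), DHI versus I/R (green) and DHI versus Sham (grey), where filled points were called. Icam1, Icam2, Vcam1 and Selplg were called higher and Selp lower after ischemia/reperfusion (red). With DHI (green), Icam1, Vcam1 and Selplg were called lower and Selp higher. The Sham signals of Madcam1 were not well above background.

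In DHI versus Sham, 0 of the 6 tested members were called, against 3.58% of all tested probes. The differences were 1.10 for Icam1 (95% interval -0.70 to 2.90), 0.59 for Vcam1 (-0.56 to 1.74), 0.24 for Icam2 (-0.52 to 0.99), 1.10 for Selplg (-0.34 to 2.54) and 0.17 for Selp (-0.88 to 1.22). These intervals reach past a 1.5-fold change on the higher side for every one of the 5 genes, so equal levels were not shown. Without DHI 1 the differences were 0.046 for Icam1, -0.07 for Vcam1, -0.054 for Icam2, 0.52 for Selplg and 0.38 for Selp, and none was called. Madcam1 was well above background only on DHI 1 of these 6 arrays, so no fold change is given for it. From the highest mean to the lowest, the order of the groups was I/R, DHI, Sham for Icam1, Icam2, Vcam1 and Selplg, and DHI, Sham, I/R for the brighter Selp probe, where DHI and Sham, and for Icam2 also I/R and DHI, were not called different.

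Most partners of these molecules on leukocytes were called in the same direction as Icam1. Of 8 leukocyte integrin genes, 7 were called higher in I/R than in Sham, against 20.8% of all probes. All 7 were also called at the adjusted threshold, and the median log2 difference of the 8 was 2.91. Itgb2, the chain shared by LFA-1 and Mac-1, rose by 5.07 (adjusted p = 0.0396), and Itgam, the other chain of Mac-1, by 3.40 (adjusted p = 0.0402). Both were well above background on all 3 Sham arrays, as were all 11 microglia and macrophage genes. Which cells gave these signals was not tested. Itgal, the other chain of LFA-1, was near background throughout Sham, and in I/R its signal was at least 57.3-fold higher (adjusted p = 0.0396). Itgal and Itgax were tested only because their I/R arrays were well above background. Itgb7, a chain of the MAdCAM-1 receptor, rose by 2.46, and Itga4, a chain of VLA-4 and of that receptor, was not called (0.74, adjusted p = 0.175). In DHI versus I/R, 5 of the 8 were called lower, against 10.5% of all probes, and 0 at the adjusted threshold. Itgb2 differed by -3.34, Itgb7 by -1.56 and Itga4 by -1.04, while Itgam (-1.73) was not called. Itgal was called lower, but was well above background on only 1 of the 3 DHI arrays. Without DHI 1, all 8 were called lower, with a median of -2.53, where 45.2% of all probes were called in either direction. The summed level of the 8 was 0.91 to 0.98 in Sham, 4.32 to 12.7 in I/R and 0.85 to 7.96 in DHI.

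The proteins that carry selectin-binding sugars and the enzymes that build those sugars were measured by 14 genes. Of these, 12 were tested, 8 were called higher in I/R than in Sham (7 at the adjusted threshold) and 0 lower, with a median of 1.80. The share called higher over all probes was 20.8%. In DHI versus I/R, 5 of the 12 were called lower and 0 higher, with a median of -0.50, and 6 lower without DHI 1. The share called lower over all probes was 10.5%, and without DHI 1 45.2% were called in either direction. Chst4, a sulfotransferase gene of this list, stayed near background on all 9 arrays. Of the 3 anchors that hold adhesion molecules to the cytoskeleton all were called higher in I/R, among them Msn (moesin) by 2.52 (adjusted p = 0.0396), and Msn was called lower in DHI versus I/R, at -1.68 (all 3 without DHI 1).

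The signals known to induce adhesion molecules were called higher together. Of 10 such genes on the array, all 10 were called higher in I/R than in Sham (9 at the adjusted threshold, median 1.97), against 20.8% of all probes. In DHI versus I/R, 8 were called lower (0 at the adjusted threshold, median -1.25), against 10.5% of all probes. Without DHI 1, 9 were called lower, with a median of -1.89, where 45.2% of all probes were called in either direction. Il1b, encoding interleukin-1 beta, rose by 2.72 (adjusted p = 0.0419). Nfkb1, a subunit of NF-kB, rose by 1.80, and Nfkbia, the NF-kB inhibitor, by 1.01 (adjusted p = 0.0485). Tnf was called higher by 1.78 with an adjusted p of 0.0723. Il1b and Nfkb1 were called lower in DHI than in I/R, by log2 differences of -1.97 and -1.32, while Tnf (-1.19) and Nfkbia (-0.25) were not called.

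Of 10 endothelial markers, 2 were called higher in I/R than in Sham, near the 20.8% of all probes, with a median of 0.17. In DHI versus I/R 0 were called, and without DHI 1, 1 was called higher and 2 lower, where 45.2% of all probes were called. Cldn5, the tight junction protein claudin-5, differed by 0.16 (SE 0.15) and by -0.14 in the 2 comparisons. Pecam1, a junction molecule of endothelium that leukocytes and platelets share, was called higher by 1.10 in I/R (adjusted p = 0.0823). For these 10 genes the summed level was 10.1 to 10.9 in Sham, 10.3 to 13.8 in I/R and 11.3 to 11.8 in DHI. Of 10 junctional and transmigration genes, 3 were called higher in I/R, also near the 20.8% of all probes. In DHI versus I/R 0 of these were called (3 lower without DHI 1). Icam5, an ICAM of neurons, was called lower in I/R (-1.62, adjusted p = 0.063), as were all 5 neuron markers.

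Most microglia and macrophage genes were called in the same directions as Icam1. Of 11 microglia and macrophage genes, 10 were called higher in I/R (median 3.61) and 10 lower in DHI versus I/R (median -2.42). The shares of all probes for these 2 calls, here and for the lists that follow, were 20.8% and 10.5%. Without DHI 1, 10 were called lower and 1 higher in DHI versus I/R, with a median of -3.45, where 45.2% of all probes were called. Ptprc, which encodes the leukocyte antigen CD45, rose by 4.68 in I/R and differed by -2.91 in DHI versus I/R. Of 7 tested lymphocyte genes, 4 were called higher in I/R and 3 lower in DHI versus I/R (3 without DHI 1), with summed levels of 0.167 to 0.206 in Sham, 0.529 to 0.955 in I/R and 0.202 to 0.697 in DHI. The 4 called higher were Cd3d, Cd3g, Cd4 and Cd8a, and the 3 called lower were Cd3g, Cd4 and Cd8a. Cd3e, which marks T cells, was not called in either (1.15 and -1.44). It was well above background on only 1 Sham and 1 DHI array. Of 4 tested neutrophil genes, 3 were called higher in I/R, and in DHI versus I/R 0 were called lower and 1 higher (2 lower and 1 higher without DHI 1). Ms4a1 and Elane, which mark B cells and neutrophils, stayed near background on all 9 arrays. Of 7 fibroblast and pericyte genes, 6 were called higher in I/R and 4 lower in DHI versus I/R (6 without DHI 1). In I/R versus Sham, 2 of 5 choroid plexus genes were called higher, 2 of 4 astrocyte genes higher and 1 lower, and 0 of 5 oligodendrocyte genes. Among all probes 20.8% were called higher and 22.3% lower, and lists this small set little against such shares. Against I/R, DHI had 0 choroid plexus, 2 lower astrocyte and 1 higher oligodendrocyte gene called, and all 5 neuron genes were higher. Without DHI 1 these were 2 lower choroid plexus, 2 lower and 1 higher astrocyte, 1 higher oligodendrocyte and 5 higher neuron genes. The part of these cells in the signals of Icam1, Vcam1 and Selplg was not tested.

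**Figure D4:**
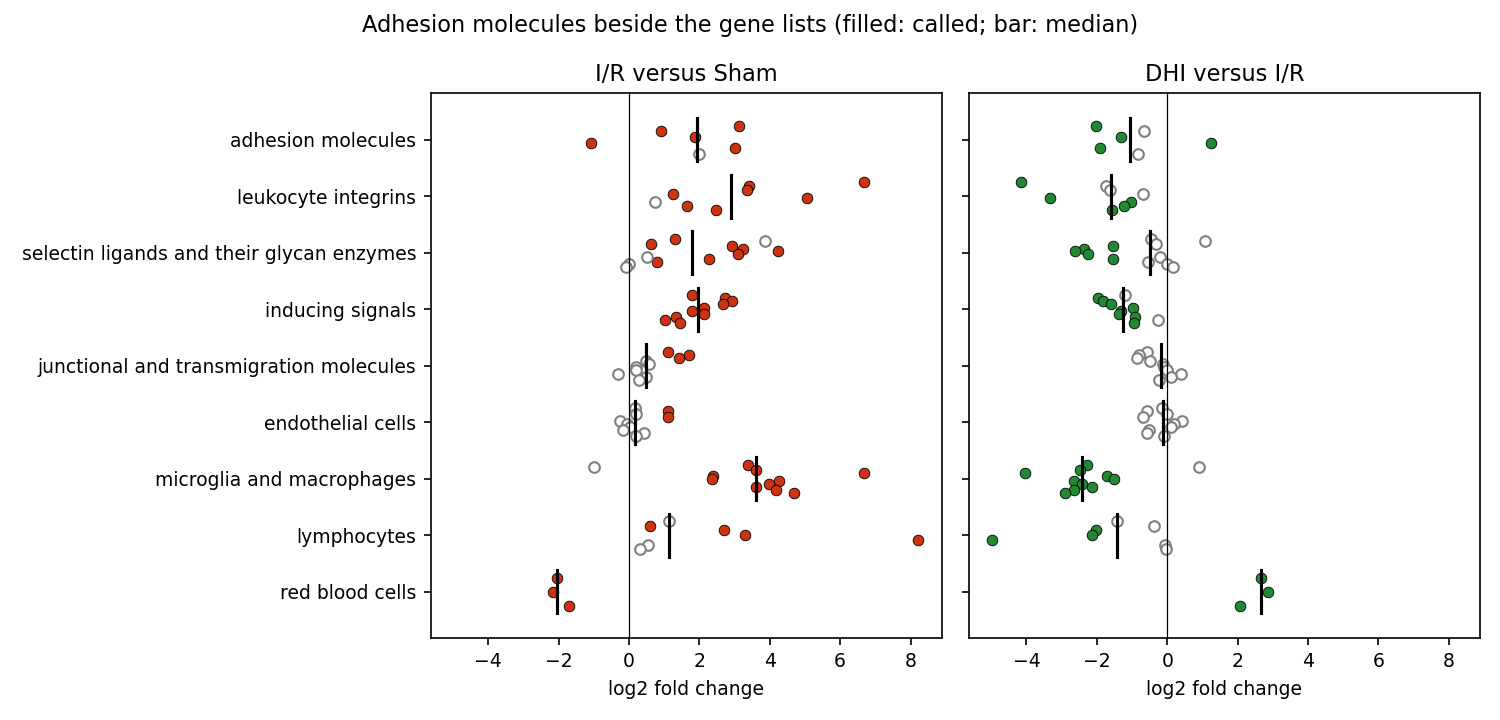
Log2 fold change (x axis) of the 6 tested adhesion molecules and of the tested genes of 8 lists (y axis) in I/R versus Sham (left) and DHI versus I/R (right), where each point is a gene, filled points were called and bars are medians. In I/R versus Sham the medians were 1.94 for the adhesion molecules, 2.91 for leukocyte integrins and 0.17 for endothelial genes. Values of genes not well above background in a group, such as Itgal in Sham, are fitted values.

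Over the 9 arrays, the gene whose levels were most like those of Icam1, out of 13665 genes, was Rab20 (Pearson's r = 0.999), followed by C1qtnf6 and Ifitm1. That of Vcam1 was Pion (0.998), followed by Mylip and the complement protease gene C1r. Likeness of this degree was common, since 1643 genes had an r above 0.95 with Icam1 and 1419 with Vcam1. Selplg was most like Reep3 (0.993), then Trib3 and Tpst1 (889 genes above 0.95), and Tpst1 encodes a tyrosine sulfotransferase that is also on the list of selectin ligand enzymes. Icam2 was most like Fam83f (0.993), then Leprotl1 and Jmjd7 (305 genes above 0.95). Few genes were like the other 2 members, with Eps8l2 (0.952), Guf1 and Acan nearest to Selp, and Atp6v0d2 (0.943), Ogn and Wfdc3 nearest to Madcam1. The 9 points share the group differences and the position of DHI 1.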

How the data were processed

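For each of 9 arrays the authors deposited spot intensities from Agilent Feature Extraction (version 10.7.1.1 per the submitters' processing notes), background-corrected array by array, with no scaling across arrays. A table of log2 values that the authors deposited as well followed quantile-normalized intensities (r = 0.99953, median 7.556 on each array) and was used as an alternative. Its normalization is not given in the sources used here. Groups came from the sample labels. Control and outlier spots (392 to 725 per array) were left out, log2 intensity was taken minus the array's 75th percentile over non-control spots, and the spots of each probe were averaged. Testing required a signal well above background on the 3 arrays of 1 or more groups. Of the members and listed genes, Madcam1, Itgal, Itgax, Il1r1, Cd3e, Cd8a, Cd79a and Mmp8 met this in I/R only. Their higher I/R signals are thus in part fixed by the filter. limma 3.58.1 (R 4.3.3) fitted the 3 groups over all 9 arrays (6 residual degrees of freedom), and the script was tested on simulated data. The number of arrays limits the precision. The fold changes given for Madcam1 and Itgal, dim in Sham, use Sham signals raised to at least the array's lowest signal well above background. Log2 differences, intervals and p-values come from the fit, where no signal was raised. Summed levels add linear signals divided by the 75th percentile. Probe positions are those of the array's rn4 design, and promoters are RefSeq's (GRCr8).

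All members and a fixed set of partner and marker genes, of which 1 is not reported here, were named whatever their values, besides the 3 genes most like each tested member. Hba-a2, Hbb, Alas2, Gp1bb, Gp9, Pf4, Ppbp, Cd3d, Cd3g, Cd4, Cd8a, Cd79a, Itgax, Il1r1 and Mmp8 were named after their values were seen. Members and lists were chosen with earlier results of these data known.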

Additional observations from a re-analysis of the deposited data

How the results depend on the processing

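Icam1, Vcam1 and Selplg kept their I/R versus Sham calls under all 21 alternatives, with log2 differences of 2.98 to 3.39, 1.79 to 2.09 and 2.44 to 3.49. Of 6 tested members, 5 were called in this comparison (3 to 6 with 1 array left out). At the adjusted threshold 3 passed, against 0 with no scaling and 5 each with only the 2 groups compared, with array weights and with the replicate number as a block (0 to 5 with 1 array left out). In DHI versus I/R, 4 were called, against 2 with only the 2 groups compared and 0 by the methods' t-test (0 to 6 with 1 array left out). Over all probes 21.9% were called, 9.05% with only the 2 groups compared and 1.97% by the t-test. At the adjusted threshold 0 passed, against 5 with array weights (0 to 6 with 1 array left out). With array weights 11817 of all 23747 probes passed. In DHI versus Sham 0 were called, against 1 with normexp background correction (Madcam1, 0.69), where 5.65% of all probes were called. Over all 23747 probes the adjusted calls of I/R versus Sham numbered 7471, and 1 with no scaling. They numbered 9758 with only the 2 groups compared, 13013 with array weights and 8426 with the block.

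Directions turned as follows. Selp in I/R versus Sham was 0.59 with its other probe, and Madcam1 in DHI versus I/R was 0.37 with normexp. In DHI versus Sham, where none of the 6 was called, Icam2 was -0.028 with no scaling, -0.082 with array weights and -0.054 to 0.41 with 1 array left out (lowest without DHI 1), Vcam1 was -0.12 with array weights and -0.07 to 0.94 with 1 array left out (lowest without DHI 1), and Madcam1 was -0.27 with array weights. Selp there was -0.033 with quantile normalization, -0.094 with no scaling, -0.035 with the deposited log2 table, -0.19 with array weights, -0.14 without Sham 1, and -0.20 (without DHI 2) to 0.38 with 1 array left out. The causes were not tested. The replicate numbers did not pair the arrays (same-number correlations of deviations 0.07, -0.29 and 0.15 for I/R with Sham, and 0.48, -0.34 and 0.42 for DHI with I/R), and the block added the call of Icam2 in DHI versus I/R. A percentile over averaged probes, and the gene lists without DHI 1, were added after seeing the data. The filter on all 9 arrays left Madcam1 untested, and the mean of a gene's tested probes was not run, since no member had more than 1. Signals near background limit Sele, Selp and Madcam1.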
